A study of Mus musculus with 2 samples.

Results

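The 40 genes described here serve DNA replication and the S phase of the cell cycle. They were chosen by symbol, with no value of these libraries in the rule, though earlier results of these data were known. All 40 were found once among the 31053 genes of both matrices. They cover origin licensing and the replicative helicase (8 genes), the fork, clamp and polymerases (10), nucleotide synthesis (3), chromatin and histone supply (8), DNA repair (6) and cell cycle control and ubiquitin (5). The cells were mouse bone marrow cells that carried E-cadherin on their surface, sorted into a cKIT+ and a cKIT- fraction, and each sort was sequenced as 1 single-cell 3′ library. GEO's labels give the strain as FVB. The study's text is not uniform, calling the mice wild-type in its results and Vav-iCre;mTmG in its figure legend. In Vav-iCre;mTmG mice a Cre recombinase under the blood-cell promoter Vav switches a membrane reporter. Cells of several mice were pooled. cKIT is the receptor for stem cell factor that marks blood progenitors and mast cells, and neither source gives the age of the animals.

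Before S phase, origin recognition proteins, Cdc6 and Cdt1 load the MCM ring onto DNA, and Cdc45 and the GINS complex then turn that ring into the active helicase. Polymerase alpha with its primase starts each strand, the clamp Pcna holds the later polymerases on DNA, and histones and deoxynucleotides are made in step with the fork. Many of these genes are transcribed around the G1 to S transition under E2F factors, so their transcripts mark dividing cells. In bone marrow, progenitors divide while late granulocytes, basophils among them, leave the cell cycle.

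The cKIT+ library held 6632 deposited cells and 95477153 UMIs, and the cKIT- library 3745 cells and 24033994 UMIs. The filter stated in the study's methods left 6479 and 3662 cells, with medians of 13039 and 4416.5 UMIs. Kit itself was at 37.1 CPM (UMIs per 1000000 UMIs of all kept cells of a sort) in the cKIT+ and 0.874 CPM in the cKIT- library, so the labels and the transcript pointed the same way, whereas Cdh1, which encodes E-cadherin, was at 62.8 and 193 CPM. 10 cell barcodes occurred in both libraries. With 1 library per sort there is no replicate, so no statistical test could be run. Intervals are 95% and cover counting error only, and the spread between animals is unknown. Reads came from transcript 3′ ends, so a CPM is not scaled by transcript length and does not compare the amounts of different genes.

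A sequence feature that the choice of members did not use was looked for in the promoters, since E2F factors bind short GC-rich letters near the start of many replication genes. The letters TTTCCCGC, TTTGGCGC, TTTCGCGC and TTTGCCGC were searched on both strands from 250 bases before to 50 bases after each start, in RefSeq windows of GRCm38.p6. 30 of the 40 members had a window, and 12 of these 30 held such letters, against 2.61% of 27025 genes. The 12 were Mcm5, Mcm6, Cdca7, Dtl, Uhrf1, Hells, Ubr7, Pold3, Cdc6, Casp8ap2, Clspn and Pola1. The letters CCAAT, a common promoter element, stood in 21 of 30 members and in 41.1% of all genes, and the mitotic element letters TTTGAA or TTCGAA stood in 6 of 30 and in 21.7% of all genes. The 33 windows of members, a few genes having more than 1 start, were richer in G and C (median 59.0%) than all windows (52.7%). A match is a description of letters and not a bound site. 5 windows are printed 5′ to 3′ on the gene's own strand, with the E2F letters in capitals. Mcm5 and Mcm6 show overlapping matches on opposite strands, Clspn a match past the start, Hells a gene with over 2-fold between the sorts, and E2f8 a member without a match.
Mcm5 (chr8:75109259-75109558, plus strand): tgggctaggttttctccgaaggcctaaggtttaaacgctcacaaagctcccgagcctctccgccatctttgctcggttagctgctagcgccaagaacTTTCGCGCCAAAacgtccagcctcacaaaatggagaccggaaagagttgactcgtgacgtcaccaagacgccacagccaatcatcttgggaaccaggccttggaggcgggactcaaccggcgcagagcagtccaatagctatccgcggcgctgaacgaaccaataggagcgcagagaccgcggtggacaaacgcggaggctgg
Mcm6 (chr1:128359656-128359955, minus strand): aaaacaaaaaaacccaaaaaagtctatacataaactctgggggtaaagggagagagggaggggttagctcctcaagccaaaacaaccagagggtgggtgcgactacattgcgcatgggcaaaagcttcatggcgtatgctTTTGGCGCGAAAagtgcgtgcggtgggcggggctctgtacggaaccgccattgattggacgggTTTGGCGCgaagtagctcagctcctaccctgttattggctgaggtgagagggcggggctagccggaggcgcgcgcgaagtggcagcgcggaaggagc
Clspn (chr4:126556730-126557029, plus strand): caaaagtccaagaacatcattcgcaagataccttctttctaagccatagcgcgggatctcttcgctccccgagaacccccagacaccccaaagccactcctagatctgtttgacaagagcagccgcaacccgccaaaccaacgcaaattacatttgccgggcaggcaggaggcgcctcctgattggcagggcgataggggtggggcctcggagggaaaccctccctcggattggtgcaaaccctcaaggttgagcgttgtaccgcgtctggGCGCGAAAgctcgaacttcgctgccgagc
Hells (chr19:38930740-38931039, plus strand): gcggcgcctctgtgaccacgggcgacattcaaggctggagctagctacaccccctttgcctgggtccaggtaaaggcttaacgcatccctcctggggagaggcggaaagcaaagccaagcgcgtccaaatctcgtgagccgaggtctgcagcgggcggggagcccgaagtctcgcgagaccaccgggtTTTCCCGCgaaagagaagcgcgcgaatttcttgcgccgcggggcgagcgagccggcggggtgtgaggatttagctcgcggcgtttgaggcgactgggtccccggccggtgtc
E2f8 (chr7:48881547-48881846, minus strand): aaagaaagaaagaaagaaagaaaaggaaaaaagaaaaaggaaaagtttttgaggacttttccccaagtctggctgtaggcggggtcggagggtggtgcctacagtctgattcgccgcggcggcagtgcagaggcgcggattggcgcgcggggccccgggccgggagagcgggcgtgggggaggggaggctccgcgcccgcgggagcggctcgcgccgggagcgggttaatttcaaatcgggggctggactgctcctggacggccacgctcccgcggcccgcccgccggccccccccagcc

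Replication transcripts were at similar summed levels in the 2 sorts, slightly higher in cKIT+ cells. The 40 genes together made up 3293 CPM (interval 3281 to 3305) of the cKIT+ and 2878 CPM (2856 to 2900.1) of the cKIT- library, a ratio of 1.14 (1.13 to 1.15). The typical member differed more than the sum, with a median ratio of 1.35 over the 40 members beside 0.976 over the 8023 genes with at least 10 CPM in 1 library. 34 members were higher in cKIT+ cells and 6 in cKIT- cells, and the interval excluded a ratio of 1 for 31 and 6 of them. These counts were not taken over all genes, and at this depth the intervals are narrow. Of 8 constitutive genes, Actb, Gapdh, Eef1a1, Rplp0 and Ppia had intervals without 1 too, but Tbp, Hprt and B2m did not. The 3 members that weighed most in the sum, by CPM added over both libraries, were Rfc2 and Slbp, which were higher in cKIT- cells, and Tyms, with a ratio of 1.00. Without these 3 the summed ratio was 1.30, and without Rfc2 alone 1.21 (1.202 to 1.22). Ung, Hells, Cdca7 and Exo1, 4 of the 40, passed 2-fold in favour of cKIT+ cells, as did 7.30% of all genes, and 0 passed it in favour of cKIT- cells, as did 9.06% of all genes. In UMIs per cell, a measure that contains the unequal depth, all 40 members were higher in cKIT+ cells and the ratio of the sums was 2.58. By that measure the median log2 ratio of all genes was 1.135, and 61.7% of all genes passed 2-fold in favour of cKIT+ cells.

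**Figure D1:**
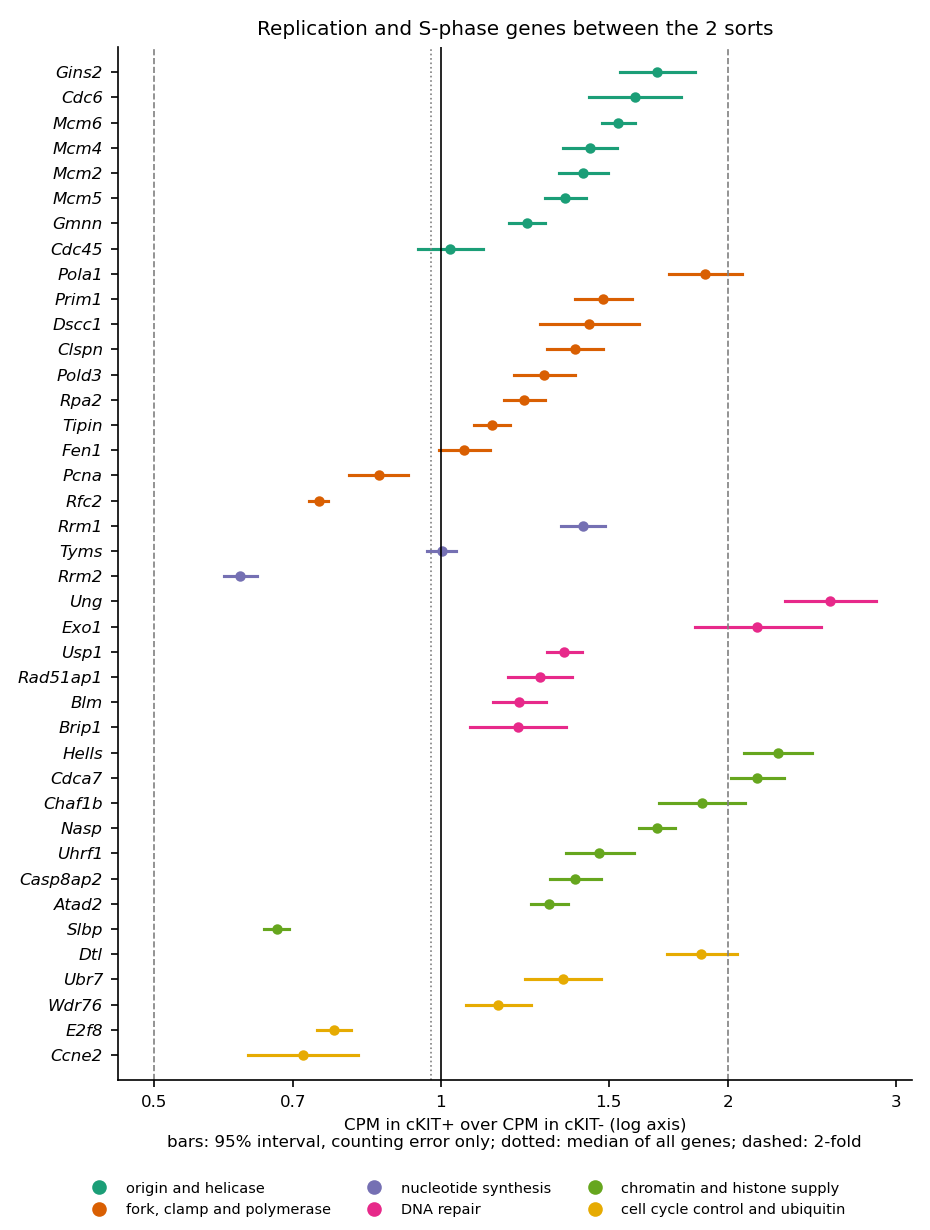
Ratio of CPM in cKIT+ over cKIT- cells for each of the 40 members (points, log axis), coloured by role, with 95% counting intervals (bars). 34 points lie right of 1, and the 6 to its left are Rrm2, Slbp, Ccne2, Rfc2, E2f8 and Pcna.

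All 8 origin and helicase genes were higher in cKIT+ cells. Mcm6 was at 188 CPM in cKIT+ and 123 CPM in cKIT- cells (ratio 1.53, interval 1.47 to 1.60), and Mcm5 at 111 and 81.9 CPM (1.35, 1.29 to 1.42). Mcm2 (ratio 1.41) and Mcm4 (1.43) lay between them, and all 4 subunits of the MCM ring in the list were higher in cKIT+ cells, with intervals of Mcm5 and Mcm6 that do not overlap. Gins2, a subunit of the GINS complex, had the highest ratio of the 8 (40.03 and 23.7 CPM, 1.69, 1.54 to 1.85). Cdc6, which loads the ring, followed at 26.1 and 16.3 CPM (1.60, 1.43 to 1.79). Gmnn, which encodes geminin and blocks a second round of loading, was at 132 and 108 CPM (1.23, 1.18 to 1.29). Cdc45, the helicase cofactor, was at 35.4 and 34.6 CPM, and its interval held 1 (1.02, 0.946 to 1.11).

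The fork genes were divided. Pola1 and Prim1, which encode the catalytic subunits of polymerase alpha and primase, were higher in cKIT+ cells at 47.1 and 24.9 CPM (ratio 1.89, 1.73 to 2.07) and at 64.2 and 43.4 CPM (1.48, 1.38 to 1.59). Dscc1, part of an alternative clamp loader, had a ratio of 1.43, Clspn, the checkpoint mediator claspin, 1.38, the polymerase delta subunit Pold3 1.28, the single-strand binding protein Rpa2 1.22 and the fork protector Tipin 1.13. Fen1, which cuts flaps from lagging-strand fragments, was at 60.1 and 56.8 CPM, and its interval held 1 (1.06, 0.996 to 1.13). Pcna went the other way, at 36.8 CPM in cKIT+ and 42.8 CPM in cKIT- cells (0.861, 0.801 to 0.925). Its direction turned where each cell was weighted alike.

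Rfc2, a subunit of the clamp loader, was at 315 CPM in cKIT+ and 423 CPM in cKIT- cells (0.745, 0.728 to 0.762), and 45.5% and 54.9% of cells had at least 1 Rfc2 UMI when each cell was drawn to 2000 UMIs (85.2% and 78.8% at full depth). Its gene (chr5:134581366-134601805, plus strand, GRCm38) shares 1784 bases with Lat2 on the other strand, which encodes an adaptor of mast cell and lymphocyte signalling. Lat2 was at 152 CPM in cKIT+ and 488 CPM in cKIT- cells, and over 21 groups of cells described below the log2 CPM of Rfc2 and Lat2 had r = 0.68. Another pair had an r near this one. Fen1 and Tmem258, which share 156 bases on opposite strands, had r = 0.62. The part of reads from Lat2 in the Rfc2 counts was not tested. Gins2, Ccne2, Ubr7, Cdc45 and Dscc1 also overlap a gene of the matrix on the other strand, with r from -0.20 to 0.24 where both were detected, and no member overlaps one on its own strand.

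Of the 3 genes for deoxynucleotides, each showed another pattern. Rrm1, the large subunit of ribonucleotide reductase, was at 98.7 and 70.0 CPM in cKIT+ and cKIT- cells (1.41, 1.34 to 1.49). Rrm2, the small subunit of the same enzyme, was at 93.6 and 152 CPM, the lowest ratio of all members (0.617, 0.593 to 0.642). Tyms, thymidylate synthase, was at 177 CPM in both (1.00, 0.968 to 1.04). The subunits of 1 enzyme thus lay on opposite sides of 1 in CPM.

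Among the chromatin genes, 7 of 8 were higher in cKIT+ cells. Hells, a chromatin remodeller, was at 64.6 and 28.6 CPM (2.26, 2.08 to 2.45), and its partner Cdca7 at 98.3 and 45.8 CPM (2.15, 2.01 to 2.29). Both serve the maintenance of DNA methylation, as does Uhrf1, which had a ratio of 1.47 (1.35 to 1.59). Chaf1b of the histone chaperone CAF-1 had a ratio of 1.88 (1.70 to 2.09), the histone chaperone Nasp 1.69, Casp8ap2, which acts in histone mRNA processing, 1.38, and the bromodomain protein Atad2 1.30. Slbp, which binds the stem-loop of histone mRNA, was the exception, at 174 CPM in cKIT+ and 259 CPM in cKIT- cells (0.673, 0.653 to 0.693).

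All 6 repair genes were higher in cKIT+ cells. Ung, the glycosylase that removes uracil from DNA, had the highest ratio of all members, at 40.04 and 15.7 CPM (2.56, 2.29 to 2.86). Exo1, an exonuclease of mismatch and end resection, was at 18.2 and 8.48 CPM (2.15, 1.85 to 2.50). The deubiquitinase Usp1 (1.35), Rad51ap1 of homologous recombination (1.27), and the helicases Blm (1.208) and Brip1 (1.204) differed less. Of the 5 control genes, Dtl, a substrate receptor of a ubiquitin ligase, was higher in cKIT+ cells (50.9 and 27.1 CPM, 1.88, 1.73 to 2.04), as were Ubr7 (1.34) and Wdr76 (1.15). Cyclin E2 (Ccne2) was at 9.49 and 13.2 CPM (0.717, 0.628 to 0.820) and the repressor E2f8 at 101 and 130 CPM (0.773, 0.742 to 0.806). The direction of Ccne2, like that of Pcna, turned where each cell was weighted alike.

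Other genes of the same machinery, from a list of 44 that are not members, were higher in cKIT+ cells too. 39 of them passed 10 CPM, 32 were above and 7 below a ratio of 1, and the median was 1.39 beside 0.976 over all genes. Each 2-fold count of a list below stands beside 7.30% of all genes in favour of cKIT+ and 9.06% in favour of cKIT- cells. Gins1 (2.02) and Orc2, an origin recognition subunit (2.15), 2 of the 39, passed 2-fold in favour of cKIT+ cells. The lowest ratios belonged to the histone chaperone Asf1b (0.555) and the single-strand binding subunit Rpa3 (0.653). Of 30 G2 and mitosis genes, 29 passed 10 CPM, 0 passed 2-fold either way, and 21 were below 1, from Ckap2 (0.547) and Cenpa (0.616) to Bub1 (1.12) and Top2a (1.15). The summed mitotic level was 3657 CPM in cKIT+ and 4236 CPM in cKIT- cells (0.863, 0.857 to 0.870), while cells with at least 5 mitotic UMIs of 2000 were the larger share in the cKIT+ sort, 39.2% (38.0 to 40.5) beside 24.1% (22.7 to 25.55). Among 12 E2F, cyclin and CDK genes past 10 CPM, Cdk6 (2.85) and Ccnd2 (2.15) passed 2-fold in favour of cKIT+ and E2f2 (0.285) and Ccnd3 (0.453) in favour of cKIT- cells. Of 10 genes of cell cycle exit past 10 CPM, all were below 1. In favour of cKIT- cells 6 passed 2-fold, Cdkn2c, Cdkn2d, Rbl2, Btg1, Btg2 and Ccng2, beside 9.06% of all genes. Btg1 (71.0 and 328 CPM) and Btg2 (45.01 and 194 CPM), which restrain proliferation, had the lowest ratios of the 10. Rb1 (0.809) and E2f4 (0.921) were nearest to 1. Among 8 constitutive genes, Actb was over 2-fold higher in cKIT- cells (0.424), with Tbp at 0.936, and Eef1a1 (1.16) and Rplp0 (1.66) were highest in the other direction.

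The sorts also differed by share of cells, a measure that cannot be set directly against a ratio of sums. Each cell was drawn to 2000 UMIs, without the 345 cKIT+ and 176 cKIT- cells that had fewer, and a cell with at least 5 UMIs of the 40 genes was called module-high. 3311 of 6134 cKIT+ cells (54.0%, interval 52.7 to 55.2) and 1086 of 3486 cKIT- cells (31.2%, 29.6 to 32.7) were module-high. The median was 5 module UMIs in cKIT+ and 3 in cKIT- cells, and the counts reached 36 and 33. 502 cKIT+ and 216 cKIT- cells lay at 5 UMIs exactly and 585 and 325 at 4, so the class is a range with many cells at its edge. At full depth 87.7% and 56.2% of cells had 5 or more module UMIs, and 49.6% and 26.5% had the same share of 25 per 10000. Module-high cells were deeper at full count, with medians of 15588 UMIs against 10677 in the other cKIT+ cells and 9502.5 against 3664 in the other cKIT- cells. What more RNA per cell and free RNA add to these shares was not tested.

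**Figure D2:**
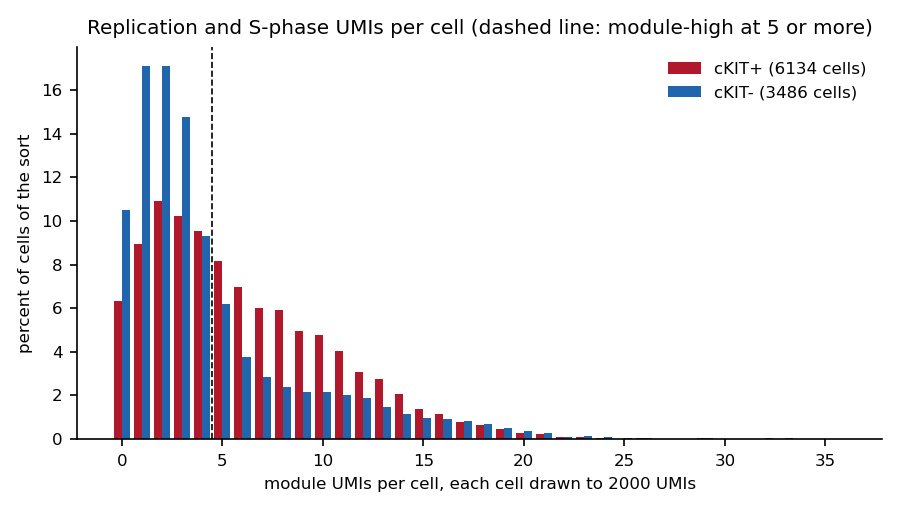
Percent of cells (vertical axis) with each number of module UMIs (horizontal axis) after every cell was drawn to 2000 UMIs, for 6134 cKIT+ and 3486 cKIT- cells. The cKIT- cells pile up at 1 to 3 UMIs, the cKIT+ cells spread from 0 to about 15, and 54.0% and 31.2% lie right of the dashed line.

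Setting the mitotic list beside the module split each sort into 4 classes. Cells with at least 5 UMIs of both lists were 24.2% (23.1 to 25.3) in the cKIT+ and 13.6% (12.5 to 14.8) in the cKIT- sort. Cells high in the module alone were 29.8% and 17.5%, and cells high in mitotic genes alone 15.05% and 10.5%. All 3 were larger shares of the cKIT+ sort. The class low in both was the larger in the cKIT- sort, at 31.0% (29.8 to 32.2) in the cKIT+ and 58.4% (56.7 to 60.02) in the cKIT- sort, or 34.2% and 62.4% at full depth with 25 per 10000 as the limit. Its cells were also the shallowest, with medians of 9260.0 and 3414 UMIs.

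The cells were also divided by the 44 other replication genes, at 5 or more of 2000 UMIs, a division chosen after seeing the data. These genes belong to the same machinery as the members, so the division is a description and not an independent check. In cKIT+ cells the 40 genes were at 4273 CPM in the 3083 high and 1910 CPM in the 3051 low cells (2.24-fold, 2.22 to 2.26). In cKIT- cells they were at 4982 CPM in 876 high and 1523 CPM in 2610 low cells (3.27-fold, 3.22 to 3.33). All 40 members were higher in the high cells of both sorts. In cKIT+ cells 33 of them passed 2-fold, as did 1.68% of all genes, and the median ratio was 2.54 beside 0.993 over all genes. In cKIT- cells 35 passed it, as did 7.02% of all genes, and the medians were 4.37 and 0.984. None passed 2-fold in the other direction, as 1.35% and 5.66% of all genes did. Of the genes of cell cycle exit, Btg2 alone passed 2-fold in cKIT+ cells and was lower in the high cells. In cKIT- cells Btg1 and Btg2 were at least 2-fold lower in the high cells, but Cdkn1a and Cdkn2c at least 2-fold higher. The high cells were again deeper, with medians of 16159 against 10645 UMIs and 10089 against 3786 UMIs.

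The members did not follow the other replication genes equally. Ccne2 had the largest difference in both sorts, at 14.5 against 2.06 CPM in cKIT+ cells (7.08-fold, 5.59 to 9.07) and 31.9 against 1.03 CPM in cKIT- cells (31.1-fold, 18.2 to 57.6). Rrm2 (5.63-fold and 13.1-fold), Exo1 (4.13 and 11.9), Clspn (4.13 and 13.8) and Dscc1 (4.04 and 9.53) came next. At the other end, Rfc2 was at 352 against 263 CPM in cKIT+ cells (1.34-fold, 1.31 to 1.37) and 481 against 383 CPM in cKIT- cells (1.254-fold, 1.204 to 1.31). Blm (1.28 and 1.60) and E2f8 (1.37 and 1.62) were close to it, and Usp1, Casp8ap2, Ubr7 and Pold3 also stayed under 2-fold in cKIT+ cells. Members with E2F letters in the promoter window had a median of 2.33-fold in cKIT+ cells (1.64 to 4.13 over 12) beside 2.56-fold in those without (1.28 to 5.63 over 18). In cKIT- cells the order was the other way, 4.76-fold (1.86 to 13.8) beside 4.36-fold (1.599 to 13.1), as it was for the ratio between the sorts, 1.501 (1.28 to 2.26) beside 1.21 (0.617 to 2.56). The ranges overlapped in all 3.

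**Figure D3:**
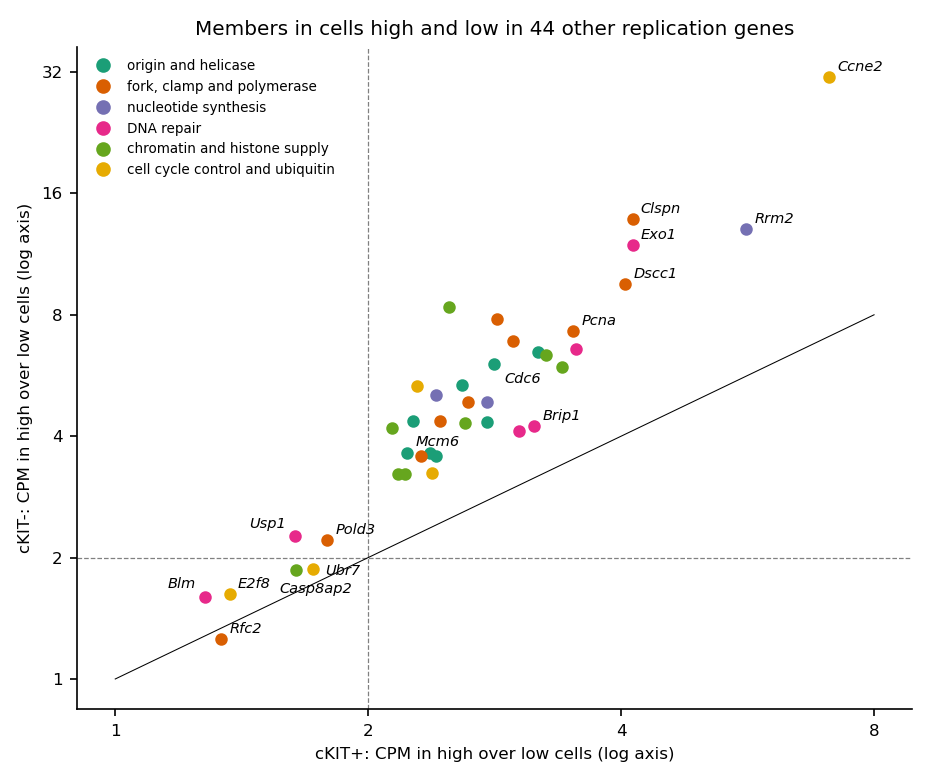
For each member, CPM in cells high over cells low in 44 other replication genes, in cKIT+ (horizontal) and cKIT- cells (vertical, both log axes), coloured by role, with dashed lines at 2-fold and a line of equal ratios. Ccne2 lies at the top right, and Rfc2, Blm and E2f8 at the bottom left.

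Basophils were then ordered by Prss34, which encodes a basophil serine protease. A cell was basophil-gated when at least 30 of 10000 of its UMIs were from Mcpt8, Fcer1a, Ms4a2, Cd200r3 and Gata2 and it passed no gate of another lineage, and Prss34 was in no gate. A gate is a range of marker share and not a cell type, and 374 cKIT+ and 47 cKIT- cells lay between 0.8 times the basophil minimum and that minimum divided by 0.8. 1 gate as planned, for granulocyte-monocyte genes (Elane, Mpo, Prtn3, Ctsg), also took cells rich in basophil genes. Its 3320 cKIT+ and 680 cKIT- cells had Mcpt8 at 15200 and 37357 CPM. The gate was therefore also run on Elane and Prtn3 alone, a choice made after seeing the data, which left 323 cKIT+ and 0 cKIT- cells in it and moved the basophil-gated cells from 820 to 3524 and from 2568 to 3248. Both versions are given.

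In cKIT- basophil-gated cells, the module was low in cells with little Prss34 and high in cells with much. With the 4-gene gate it was at 1088 CPM in cells with under 10 Prss34 UMIs per 10000, then 1223, 2316 and 3449.8 CPM at 10 to under 100, 100 to under 300 and 300 or more. With the gate on Elane and Prtn3 it was at 1088, 1339, 2535 and 3550.0 CPM, and the highest band was 3.26-fold the lowest (3.15 to 3.38), beside 3.17-fold with the 4-gene gate. Rfc2 gave 1420 of the 3223 module UMIs of the lowest band (44.1%) and 12.2% of those of the highest, and without it the highest band was 5.12-fold the lowest (4.88 to 5.37), or 4.92-fold with the 4-gene gate. The module-high share followed, from 6.43% of 918 cells (4.93 to 8.21) to 54.8% of 1598 cells (52.3 to 57.3), or from 3.14% to 51.5% at full depth with 25 per 10000 as the limit. Median depth per cell was 2902 UMIs in the lowest and 9139 in the highest band. Mitotic genes were further apart, at 427 and 5661 CPM (13.3-fold, 12.6 to 14.0).

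In cKIT+ basophil-gated cells the same order was shallower. With the 4-gene gate the module was at 2893, 3443, 3902 and 4206 CPM over the 4 bands (1.45-fold, 1.41 to 1.499), and with the gate on Elane and Prtn3 at 3168, 3331, 3549.6 and 3624 CPM (1.14-fold, 1.13 to 1.16). The module-high share with the latter was 48.5% of 582 cells (44.3 to 52.6) in the lowest and 66.0% of 913 cells (62.9 to 69.1) in the highest band, or 43.7% and 62.3% at full depth. The mitotic genes there were at 3146 and 6021 CPM.

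The sorts differed more at low than at high Prss34. Marker levels within the lowest band also differed between the sorts. There Mcpt8 was at 6464 CPM in cKIT+ and 2546 CPM in cKIT- cells, Fcer1a at 174 and 839, Gata2 at 661 and 1669.8, Lat2 at 181 and 898, and Kit at 35.3 and 0 CPM. Their part in the result was not tested. Within the lowest band the module was 2.91-fold higher in cKIT+ cells (2.81 to 3.02), then 2.49-fold, 1.40-fold and 1.02-fold (1.01 to 1.03) in the highest. Without Rfc2 the lowest band had 4.61-fold (4.39 to 4.83) and the highest 1.04-fold. With the 4-gene gate the ratios were 2.66, 2.82, 1.68 and 1.22, and over all cells without a gate 2.51, 2.36, 1.40 and 1.02. This order was not particular to the module. With the gate on Elane and Prtn3, the G2 and mitosis genes had ratios of 7.37, 4.66, 1.17 and 1.06 over the bands. By share of cells the sorts still differed in the highest band. There 66.05% of cKIT+ and 54.8% of cKIT- cells were module-high, or 71.6% and 48.5% with the 4-gene gate. Over all basophil-gated cells together the sorts differed by 1.37-fold (1.35 to 1.39) with the 4-gene gate and by 1.16-fold (1.15 to 1.17) with the other. The bands held different shares of the sorts. 1603 of 3248 cKIT- but 917 of 3524 cKIT+ cells were in the highest band.

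**Figure D4:**
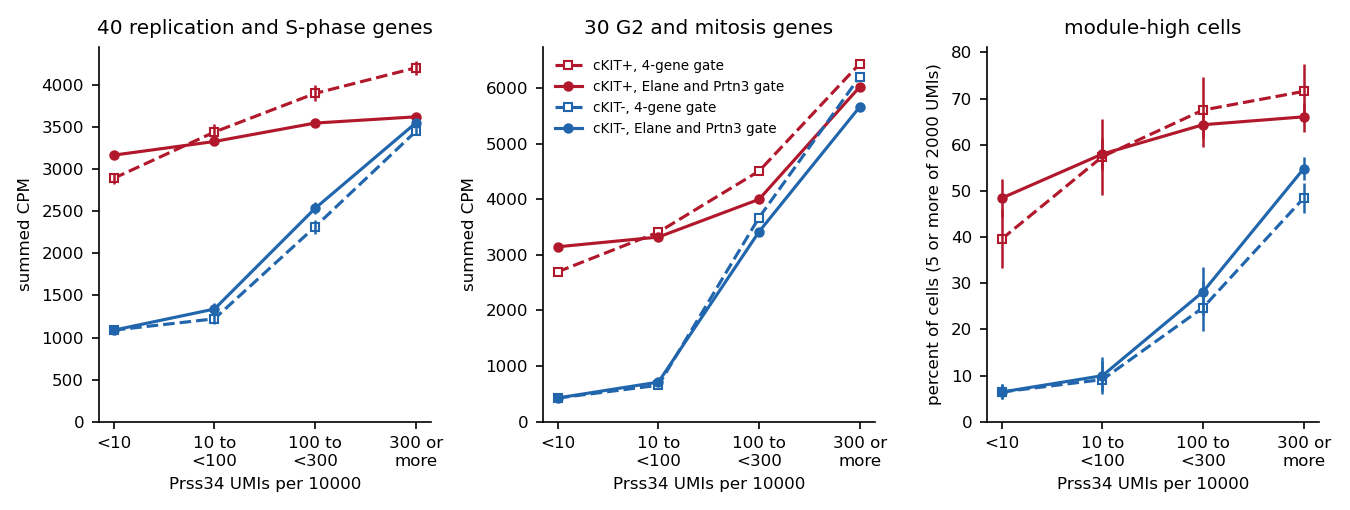
Summed CPM of the 40 members (left) and of 30 G2 and mitosis genes (middle), and percent of module-high cells (right), in basophil-gated cells of 4 Prss34 bands (horizontal axis). Colours are the sorts, open squares the 4-gene gate, filled circles the gate on Elane and Prtn3, and bars 95% counting intervals, drawn in the left and right panels. The cKIT- lines start low and come near the cKIT+ lines in the band of 300 or more in the first 2 panels, except for the module with the 4-gene gate, at 4206 and 3449.8 CPM.

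Nearly all members shared the difference between the bands in cKIT- cells. 35 of 40 were at least 2-fold higher in the highest than in the lowest band with either gate, where 14.0% of all genes were with the 4-gene gate and 15.4% with the gate on Elane and Prtn3. 0 were 2-fold lower, where 8.22% and 11.6% of all genes were. A minimum of 10 CPM had to be met in 1 band only, by members as by all genes. With the 4-gene gate most of the 35, Mcm2 and Rrm2 among them, met it through the highest band alone, where they were high. For these a fall could not be counted. Of members at 10 CPM or more in both bands, Mcm6 (5.29-fold) and Tyms (10.0-fold) were among those past 2-fold. Rfc2, E2f8, Blm, Ubr7 and Casp8ap2 were not. With the gate on Elane and Prtn3 the median ratio over all members was 11.8, beside 0.952 over all genes. Members without a UMI were set at the limit of 3 counts. The values that follow are from that gate. Rrm2 was at 209 CPM in the highest band and had 3 UMIs in all 1019 cells of the lowest, a ratio of 207 with an interval of 70.6 to 1002. Clspn and Ung had 1 UMI each there and were at 58.7 and 18.7 CPM in the highest band (intervals of the ratio 31.1 to 6878 and 9.84 to 2192). 5 members had no UMI among the 2962602 of the lowest band, which allows up to 1.01 CPM. Against that limit Rad51ap1 was at least 46.4-fold, Chaf1b at least 24.2-fold, Dscc1 at least 18.4-fold, Ccne2 at least 17.6-fold and Exo1 at least 11.1-fold higher in the highest band. The helicase subunits were measurable in both, with Mcm2 at 72.9 and 3.71 CPM (19.6-fold, 10.9 to 39.5), Mcm5 at 106 and 7.43 CPM and Mcm6 at 156 and 24.6 CPM.

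The members under 2-fold between the bands were Rfc2, E2f8, Blm, Ubr7 and Casp8ap2. Rfc2 was at 434 CPM in the highest and 479 CPM in the lowest band (0.906-fold, 0.855 to 0.960), where Lat2 was at 409 and 898 CPM. E2f8, which represses E2F targets, was at 148 and 114 CPM (1.30-fold, 1.16 to 1.47). Blm (1.38), Ubr7 (1.57) and Casp8ap2 (1.76) were nearer to 2-fold.

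In cKIT+ cells 9 of 40 members were at least 2-fold higher in the highest band with the 4-gene gate, where 5.47% of all genes were, and 2, Rrm2 and Ccne2, with the gate on Elane and Prtn3, where 2.88% were. 0 members were 2-fold lower there, as 6.25% and 2.88% of all genes were. With the latter, 25 members were higher and 15 lower in the highest band, with a median ratio of 1.135 beside 0.958 over all genes. Rrm2 was at 136 and 42.7 CPM (3.19-fold, 2.84 to 3.59), Ccne2 at 11.7 and 5.67 CPM (2.06-fold, 1.47 to 2.94) and Brip1 at 28.5 and 14.7 CPM (1.94-fold). The lower ones were led by Ung, at 26.3 and 45.1 CPM (0.583-fold, 0.502 to 0.678), Cdca7 (0.689), Dtl (0.699), Chaf1b (0.736) and Hells (0.751). The tally with the 4-gene gate was 32 higher and 8 lower, with a median of 1.425 beside 0.977 over all genes. Ung was again lower (0.630, 0.437 to 0.899), but the intervals of Cdca7 (0.932), Dtl (0.803), Chaf1b (1.06) and Hells (0.999) held 1.

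Between the sorts, 39 members had at least 10 CPM in 1 sort or both in the lowest band. 34 of them passed 2-fold in favour of cKIT+ cells, as did 23.1% of all genes with the 4-gene gate and 23.6% with the other. 0 were 2-fold higher in cKIT- cells, where 16.4% and 19.1% of all genes were. The minimum was the same for all genes. With the 4-gene gate most of the 34, Mcm2 and Cdca7 among them, met it through the cKIT+ cells alone, where they were high. For these a higher level in cKIT- cells could not be counted. The medians with the gate on Elane and Prtn3 were 9.31 over the members and 1.01 over all genes. There 4 members without a UMI in 1 sort were set at the limit of 3 counts. With that gate 34 of 37 other replication genes and 27 of 29 mitotic genes past the minimum also passed 2-fold in favour of cKIT+ cells. Cdca7 was at 97.9 CPM in cKIT+ cells and had 2 UMIs in cKIT- cells (interval of the ratio 39.99 to 1199). Mcm2 was at 85.0 and 3.71 CPM (22.9-fold, 12.7 to 46.1) and Tyms at 172 and 22.6 CPM (7.60-fold, 5.95 to 9.87). E2f8 (1.02, 0.901 to 1.16), Slbp (1.24), Blm (1.62) and Ubr7 (1.96) were under 2-fold, and Rfc2 was lower in cKIT+ cells (0.763). In the highest band 0 members passed 2-fold either way, where 1.94% of all genes were higher in cKIT+ and 2.13% in cKIT- cells with the 4-gene gate and 1.34% and 1.91% with the other. There, with the gate on Elane and Prtn3, the ratios ran from 0.651 for Rrm2 and 0.655 for Ccne2 to 1.52 for Pola1, 32 above and 8 below 1. The median was 1.10 beside 0.976 over all genes. In the 4-gene gate 38 were above and 2 below 1, with a median of 1.27 beside 0.991 over all genes. Rrm2 was at 0.913, Ccne2 turned to 1.19 (0.838 to 1.66) and Pola1 was at 1.998.

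Outside the basophil gate the module varied widely between groups of at least 50 cells. With the gate on Elane and Prtn3, the B-cell-gated cells of the cKIT+ sort (Cd79a, Cd79b, Vpreb1, Vpreb3, Igll1, Ebf1) were highest at 5023 CPM (4815 to 5237), followed by its 60 haemoglobin-gated cells at 4005 CPM (3812 to 4205). Both sums came from few cells. 28.1% of 64 B-cell-gated and 24% of 50 haemoglobin-gated cells were module-high (27.5% and 28.3% at full depth with 25 per 10000 as the limit), while 9.38% and 6.0% had 20 or more of 2000 UMIs. The 229 B-cell-gated cells of the cKIT- sort were at 1228 CPM (1150.1 to 1309), with 6.85% module-high (2.62% at full depth).

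By summed CPM the myeloid gates of the cKIT+ sort lay between. By module-high share, its Elane and Prtn3-gated and neutrophil-gated cells lay above its B-cell-gated and haemoglobin-gated cells. Cells gated on Elane and Prtn3, the granule enzymes of promyelocytes, were at 3423 CPM with 66.0% module-high, cells with the mast cell and lymphocyte proteases Gzmb and Cma1 at 2038 CPM with 29.2%, and neutrophil-gated cells at 2345 CPM with 37.9%. At full depth these shares were 65.3%, 14.6% and 34.1%, so that of Gzmb-gated cells depended most on the draw. These groups also differed in their mitotic share. Of neutrophil-gated cells 48.9% were high in mitotic genes, more than were module-high, and of Gzmb-gated cells 4.12% (1.99 to 7.44) were, fewer than were module-high. The ratio of module to mitotic CPM ran from 0.502 in haemoglobin-gated to 2.55 in cKIT- basophil-gated cells with under 10 Prss34 UMIs. Without Rfc2 the latter was 1.43, and the range ran from 0.482 to 1.89 in cKIT- cells of no gate. Gzmb-gated cells had Rfc2 at 504 CPM of their 2038 module CPM. Their ratio of module to mitotic CPM was 2.19, or 1.65 without Rfc2. Eosinophil-gated cells (2883 CPM), monocyte-gated cells (2597), cells with Car1, an erythroid carbonic anhydrase (3364), cells of several gates (3312) and cells of no gate (3182) were the other groups of the cKIT+ sort, by module CPM. The 49 macrophage-gated and 25 MHC class II-gated cells were too few for a group. In the cKIT- sort, cells of no gate were lowest at 570.0 CPM (457 to 702), from 88 module UMIs in 54 cells.

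Over these 21 groups, bands included, members peaked in different cells. 24 of 40 were highest in the B-cell-gated cKIT+ cells and 7 in the haemoglobin-gated cells (Fen1, Rrm2, Gmnn, Slbp, Ccne2, Cdc6 and Clspn). Ung, Cdca7 and Prim1 were highest in cells gated on Elane and Prtn3, Tyms and E2f8 in cKIT+ basophil-gated cells of the highest band, Dscc1 in those of the lowest, Blm in Gzmb-gated cells, Mcm6 in cells of no gate, and Rfc2 in cKIT- basophil-gated cells with 10 to under 100 Prss34 UMIs. Neighbouring groups often had overlapping intervals, and small groups such as the 69 B-cell-gated and 60 haemoglobin-gated cKIT+ cells rest on few UMIs. The groups in which all genes peak were not counted, so these tallies say nothing about the members beside other genes.

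**Figure D5:**
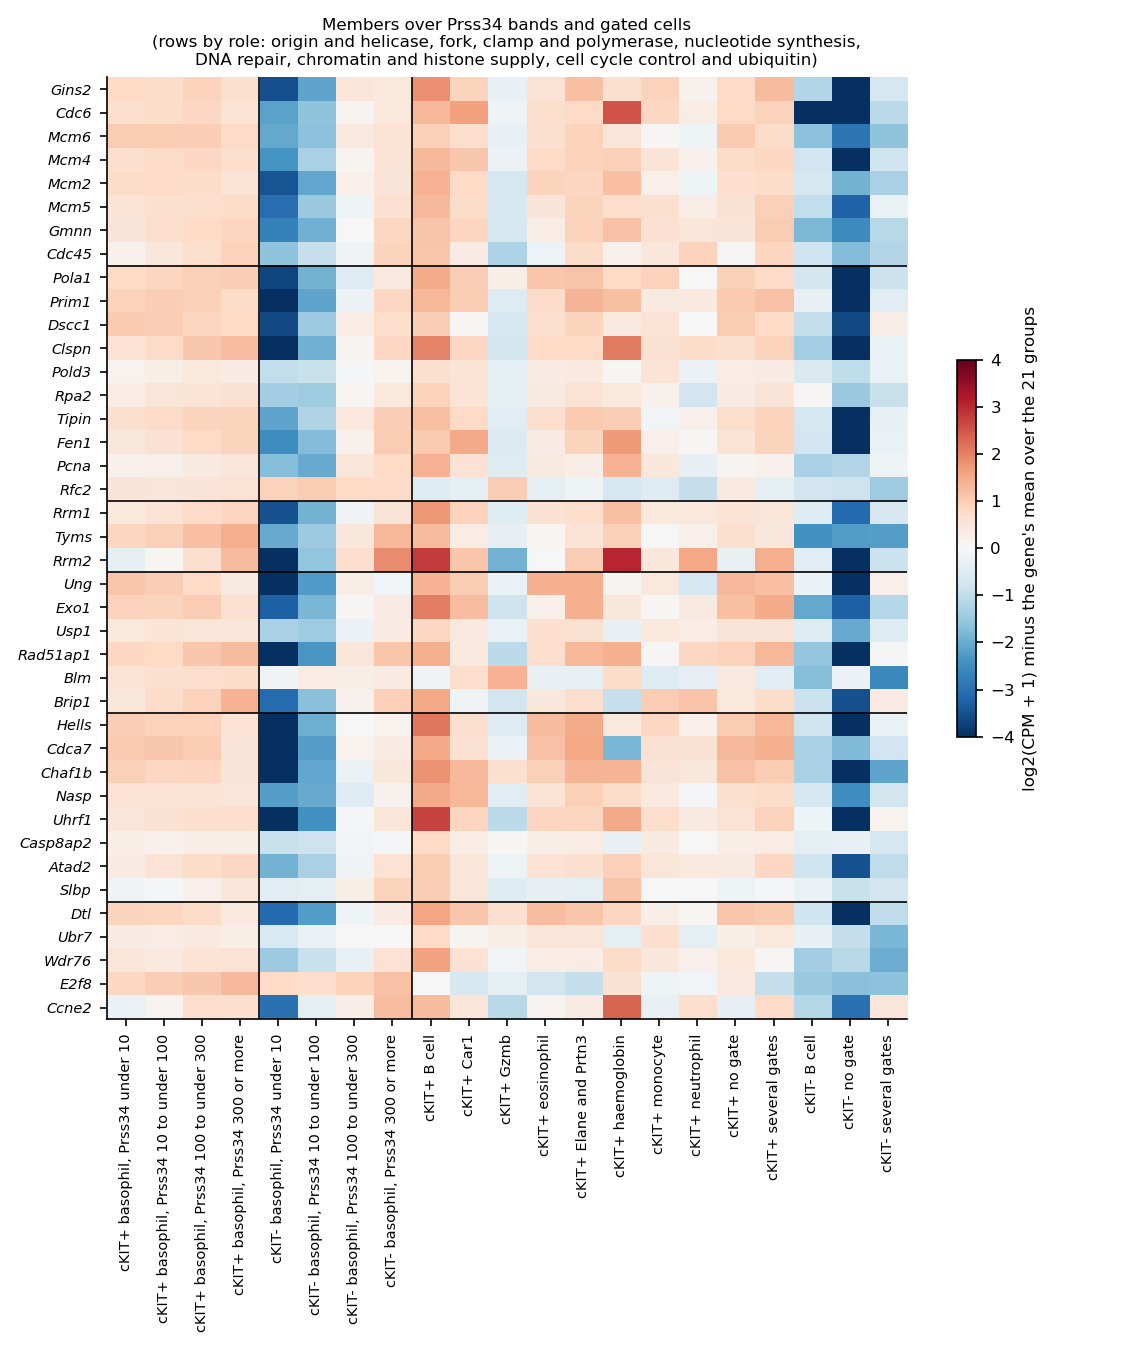
log2(CPM + 1) of each member minus its own mean over 21 groups of cells (colour, ending at 4 either way), with members by role in rows and the Prss34 bands and gated cells of both sorts in columns. Most rows are blue in the cKIT- basophil-gated cells of low Prss34 and in the cKIT- cells of no gate, while Rfc2 and E2f8 are red and Blm is near white in the basophil-gated cells of under 10 Prss34 UMIs.

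The likeness of each member to the other 39 was described by r of log2(CPM + 1) over the 21 groups, which come from 2 libraries and share their depth differences. The median was 0.892, and 32 of 40 members had r of at least 0.8, as did 5.11% of 8023 genes. This likeness was not particular to the module. The median r with the module was 0.856 for the other replication genes and 0.879 for the G2 and mitosis genes. The summed levels of the module and of the mitotic list had r = 0.834 over the same groups. Mcm6 (0.963), Atad2 (0.962), Gmnn (0.947) and Exo1 (0.940) were the most alike. Rfc2 (0.017), Blm (0.430) and E2f8 (0.437) were the least alike, and the same trio followed the other replication genes least within the sorts. With the 4-gene gate, the one planned, E2f8 was at 0.524 and the other two were again under 0.5. Outside the module, the 10 genes most like it were Cenpp (0.965), Anp32b (0.960), Atad5 (0.956), Haus4 (0.956), Dut (0.951), Smc1a (0.951), Hist1h2ak (0.9504), Chaf1a (0.949), H2afz (0.946) and Hist1h2ae (0.946). They include a dUTPase (Dut), the large subunit of CAF-1 (Chaf1a), a cohesin subunit (Smc1a), a factor that unloads the clamp (Atad5) and 3 histone genes. With log2(CPM + 10) in place of log2(CPM + 1), 6 of these 10 genes stayed among the 10 most alike.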

How the data were processed

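Mouse bone marrow cells of 2 sorts were analysed, 1 library each. The deposited files hold raw UMI counts. The submitters' processing notes name Cell Ranger 3.0.2 and mm10, with which the authors counted. The labels and the methods differ on the kit version (v2 and v3), and no value printed depends on it. Counts were used as deposited. The filter of the methods was applied per library (genes in at least 40 cells, dropping cells in the top or bottom 1% by genes or the top 1% by UMIs), and mitochondrial share was not filtered. CPM is UMIs of a gene per 1000000 UMIs of the kept cells of a group. Shares of cells were taken after drawing 2000 UMIs per cell. Sums carry exact Poisson, ratios exact binomial and shares Clopper-Pearson intervals.

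All 40 members are named, with the 2 highest and 2 lowest ratios of each other list and the 10 genes most like the module. The members, lists and gates were chosen with earlier results of these data known. Lat2 and the other cell cycle exit genes past 2-fold, outside that rule of naming, were picked with their values in view. Scrublet in Scanpy 1.11.5 marked 292 cKIT+ and 3 cKIT- cells. Whether it worked on the cKIT- library was not tested. Doublets were kept, and in an alternative the highest scores were left out (320 and 105 kept cells). Gene positions and overlaps are from GENCODE M21, which held 30934 of 31053 identifiers. Pcna, Tyms and Nasp have named pseudogenes, which could share reads. edgeR 4.0.16 and DESeq2 1.42.0 were used for scaling alone, in R 4.3.3. Fold calls, intervals and likeness were run on simulated Poisson counts, which leave out the spread between animals and libraries. Thinning was run on cells of the cKIT- library to see that it kept the mean module count.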

Additional observations from a re-analysis of the deposited data

How the results depend on the processing

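No paired analysis was possible because each sort is 1 library. The ratio of the summed module between the sorts (1.14) kept its direction under all alternatives. It was 1.17 with edgeR TMM, 1.16 with DESeq2 size factors, 1.065 without the 10 most abundant genes in the total, 1.38 with each cell weighted alike, 2.58 as UMIs per cell and 1.30 without the 3 members of highest CPM over both libraries. The count of members at least 2-fold higher in cKIT+ cells (4, beside 7.30% of all genes) was 2 without the 10 most abundant genes (6.17% of all genes). It was 13 with cells weighted alike (9.38%) and 34 as UMIs per cell, where 61.7% of all genes passed too. It was 2 at 50 CPM, 11 at 1.5-fold and 0 at 4-fold, and 1 was higher in cKIT- cells at 1.5-fold (Rrm2). For these last settings the share of all genes was not taken, so these counts say nothing about the members beside other genes. Leaving those 10 genes out moved the median of all genes by -0.10 and UMIs per cell by 1.17 (log2), and the first put Tyms, Fen1 and Cdc45 below 1. Tyms was below 1 over all deposited cells too. The module-high shares of cKIT+ and cKIT- cells were 48.8% and 29.55% at 3 of 1000 UMIs, 49.6% and 26.5% without drawing at 25 per 10000, 73.8% and 55.25% at 3 of 2000 and 22.0% and 13.8% at 10. The basophil-gated ratio (1.37) was 1.42 and 1.17 with gate minimums multiplied by 0.5 and 2, and 1.16 with the gate on Elane and Prtn3. The ratio of the highest to the lowest band in cKIT+ cells (1.45) was 1.22 with the basophil gate at 60 per 10000, 1.56 without Prss34 and Mcpt8 in the total, 1.73 with cells weighted alike, 1.14 with the gate on Elane and Prtn3 and 1.17 over all cells. In cKIT- cells (3.17) it was 3.48, 2.93 and 2.88 without those 2 genes, with cells weighted alike and over all cells. With TMM, 4 other replication genes instead of 2 passed 2-fold in favour of cKIT+ cells, beside 7.81% of all genes. Without Rfc2 the ratio between the sorts was 1.21, the module-high shares 48.4% and 25.2%, the basophil-gated ratio 1.47 and the ratios of the bands 1.53 in cKIT+ and 4.92 in cKIT- cells. The other 34 of 73 values stayed within their interval or within 1.5 times the count. With the 4-gene gate 32 members again had r of at least 0.8 over 22 groups, and Rfc2 and Blm, but not E2f8 (0.524), were under 0.5. The gate on Elane and Prtn3, the module without Rfc2, the bands over all cells, the division by other replication genes and this likeness were chosen after seeing the data.

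The design allows no test, and differences between animals, sorts and library depth cannot be told apart. A member at 0 UMIs is limited to 3 counts of its group, and groups of about 50 cells rest on few UMIs.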
